A study of Mus musculus with 80 samples.

Results

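The amygdala of virgin and primiparous mice was compared in 15 RNA-seq libraries, 7 from virgin and 8 from primiparous females, out of 77 libraries in the whole series. The libraries were chosen by the region and the reproductive state that their labels give, without use of any measured value. All animals were C57BL/6 females by the labels (C57BL/6J in the study's methods), born within a few days of each other and kept in the same room. Primiparous females had been housed with a male from 8 weeks of age, had delivered 1 litter and had weaned it, and age-matched virgins had none of these experiences. The labels give 3 weeks between weaning and harvest, whereas the methods of the study give a longer interval. Each library came from 1 animal, the tissue of all animals was taken on the same day, and the amygdala was taken from the left hemisphere only. Pregnancy, nursing, contact with a male and housing differed together between the groups and cannot be told apart. A further virgin library that the authors left out is not analysed here.

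The amygdala is a cluster of nuclei in the temporal lobe that assigns emotional value to sensory input and takes part in fear, anxiety and social behaviour. Its basolateral nuclei are built mostly of glutamatergic neurons that resemble those of cortex, its central and intercalated nuclei of GABAergic neurons that resemble those of striatum, and its medial nuclei receive pheromonal input and carry receptors for sex steroids. The medial nuclei are part of the circuit through which females respond to pups. The small nuclei border on striatum, cortex, hippocampus and hypothalamus, so that a dissected block can take in tissue of these neighbours to a varying extent.

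The dissection was first checked against genes that mark the nuclei. Values are CPM, the counts of a gene relative to the total of its library, scaled by TMM, a normalization that corrects for differences in RNA composition between libraries. The summed level of 8 basolateral markers had a median of 1623 CPM in the amygdala against 99.0 CPM in the hypothalamus, but 1855 CPM in the hippocampus and 1548 CPM in the neocortex, because Slc17a7, the vesicular glutamate transporter of cortical neurons, makes up most of it. Of the 8 genes 3 had their highest mean in the amygdala. Lmo3, a LIM-domain regulator of transcription, had 193 CPM in the amygdala and 121, 50.4, 39.7 and 2.02 CPM in hippocampus, neocortex, hypothalamus and cerebellum, and Cyp26b1, a retinoic acid hydroxylase, had 40.5 CPM in the amygdala and 14.6, 6.47, 2.83 and 24.6 CPM in the same other regions. Other members were higher elsewhere, among them the transcription factor gene Etv1 with 231 CPM in the cerebellum against 49.5 CPM in the amygdala, and Rspo2, a Wnt agonist, with 21.9 CPM in the hippocampus against 10.9 CPM. The summed genes of the central nucleus had 394 CPM in the amygdala against 586 CPM in the hypothalamus, and those of the medial and cortical nuclei 114 against 243.5 CPM, with 2 of 8 such genes highest in the amygdala. Ucn3, the peptide urocortin 3, had 3.92 CPM in the amygdala and 2.76 CPM in the hypothalamus, whereas Esr1 had 10.2 and 18.6 CPM and Ecel1, an endopeptidase-like protein, 50.7 and 169.7 CPM. Lhx6, a transcription factor of the medial list, had 30.2 and 6.23 CPM and Sst, the peptide somatostatin of the central list, 269.5 and 141 CPM, so that members of both lists lay on either side. The hypothalamic marker sum was 54.0 CPM in the amygdala against 1201 CPM in the hypothalamus, and the striatal marker sum was 459 CPM against 297 to 359.5 CPM in the 4 other regions. These region values are means per gene or medians per list and were not tested between regions. Since the libraries are bulk tissue, fewer cells of a type and less RNA per cell cannot be told apart in any result.

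Several libraries stood apart in what they contained. Primiparous 427, named by its animal number, held 172 CPM of the summed pituitary genes, in which the next primiparous library had 30.5 CPM and the 7 virgin libraries had 0 to 12.4 CPM. Prl of this list was not particular to the amygdala, where its mean was 11.9 CPM. Its means were 18.2, 9.20, 8.20 and 5.45 CPM in hypothalamus, cerebellum, neocortex and hippocampus. Virgin 405 and virgin 409 held 39.2 and 44.7 CPM of the cholinergic genes of the basal forebrain and 639 and 771 CPM of the striatal genes, whereas the other 5 virgin libraries had 3.97 to 10.6 CPM and 413 to 541 CPM. Virgin 4486 had the lowest sum of oligodendrocyte genes with 1871 CPM and of endothelial genes with 46.5 CPM, against at least 2222 and 160.4 CPM in the 14 other libraries, and the highest sum of basolateral genes with 2077 CPM. Primiparous 421 had the lowest basolateral sum with 1120 CPM. The ranges of the 2 states overlapped for all 19 marker lists. Median sums in virgin and primiparous females were 1626 and 1504 CPM for basolateral genes, 395 and 361 CPM for central genes, 117 and 98.5 CPM for genes of the medial and cortical nuclei and 464 and 421 CPM for striatal genes. They went the other way for intercalated genes with 219.7 and 234.1 CPM and choroid plexus genes with 37.4 and 59.0 CPM. The same held for cerebellar genes with 14.1 and 20.9 CPM and blood genes with 37.2 and 62.0 CPM. Most of the cerebellar sum was Car8, with a mean of 14.1 CPM in the amygdala. Car8 had 23.4, 17.9 and 16.3 CPM in hippocampus, hypothalamus and neocortex, so it does not mark cerebellar tissue alone. Gabra6, Cbln3, Fat2 and Pcp2 of this list had means of 0.74 to 1.94 CPM in the amygdala. The direction of the central list turned with the scale, since the mean of log2(CPM + 4) over its genes was 4.346 and 4.369.

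**Figure D1:**
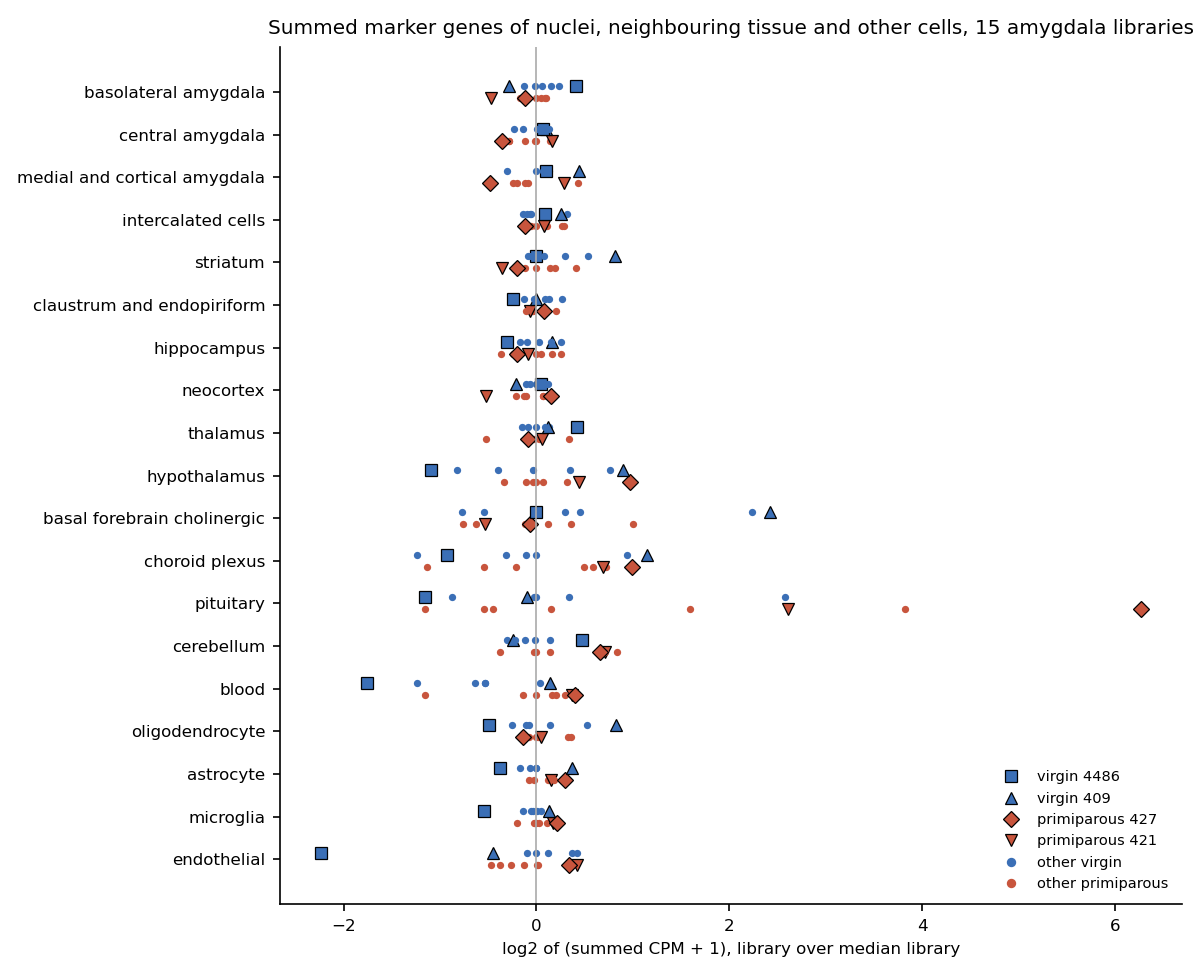
Summed CPM of each marker list in each of the 15 amygdala libraries, as log2 of the sum plus 1 relative to the median library on the x axis, with 1 row per list and 1 point per library, coloured by reproductive state. Primiparous 427 lies far to the right for pituitary genes (172 CPM) and virgin 4486 far to the left for endothelial genes (46.5 CPM), while for most lists the points of both states overlap.

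Among genes with a lower mean in the amygdala of primiparous females were Chga of secretory granules, Hrh3 of histamine signalling and Grin1 of NMDA receptors, with log2 fold changes of -0.41, -0.45 and -0.28. Gabra2 of GABA-A receptors, Homer2 of the postsynaptic density and Fabp7 of glia had higher means, with 0.34, 0.34 and 0.60. The libraries of the states did not overlap for Chga and Homer2 and overlapped for the other 4. None of these genes passed the adjusted threshold in the main edgeR fit of the amygdala libraries, which had no covariates, whereas DESeq2 called all 6. With edgeR, Chga, Hrh3 and Grin1 passed it without primiparous 413, and Gabra2 passed it without virgin 4486 and with the numbering of the animals in the model. Total counts were 12175504 to 19628734 per virgin library (median 17210641) and 11248560 to 16301591 per primiparous library (median 13818474.5). Counts of the 13016 genes that passed the expression filter were compared between the 2 states with the quasi-likelihood test of edgeR, which models the variation of each gene between animals. No gene had an adjusted p below 0.05 and the smallest adjusted p was 0.162. At an unadjusted p below 0.05, here called nominal, 1544 genes (11.9%) differed, 694 with a higher mean in primiparous females (5.33%) and 850 with a lower mean (6.53%). The count of 0 adjusted calls held with limma-voom and limma-trend, whereas DESeq2 called 106 genes, 37 higher and 69 lower, and a single edgeR fit of all 10 groups of region and state called 142 genes, 50 higher and 92 lower. Without virgin 4486 edgeR called 2 genes and without primiparous 413 it called 31 genes, and without virgin 405 the nominally lower genes numbered 558.

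The median of the absolute log2 fold change was 0.0957 beside a median standard error of 0.103, the signed median was 0.00, and 6567 genes (50.5%) had a log2 fold change above 0. For 11046 genes (84.9%) the 95% confidence interval of the fold change lay within 1.5-fold in both directions. A fold change over 1.5 at a nominal p was found for 41 genes with a higher and 36 genes with a lower mean in primiparous females. In 16 genes (0.123%) the libraries of the 2 states did not overlap. Among these, the 4 genes (0.0307%) Pum2, Lin7c, Rpa3 and Homer2 were higher in all primiparous libraries, and the 12 genes (0.0922%) Pelp1, Chga, Grk6, Puf60, Vars, Cnnm2, Abca2, Hcn3, Dctn3, Mapre3, Tecr and Bex3 were lower. Without primiparous 413 the count of such genes was 85, and without virgin 4486 it was 42.

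The base composition of the transcripts moved with the state. The median GC content was 44.6% for the genes with a nominally higher mean in primiparous females, 56.8% for those with a lower mean and 49.9% for all genes. Of 10 equal groups of genes by GC content, in the group with the lowest content, 169 were nominally higher and 3 lower, and in that with the highest content 6 were higher and 303 lower. The slope of the log2 level on GC content, per 10 points of GC percent, ranged from -0.08 to 0.14 (median 0.07) in virgin and from -0.09 to 0.05 (median -0.06) in primiparous libraries, so that the states overlapped in part. When the trend of each library with GC content and gene length was removed as an offset, 573 genes (4.4%) were nominally higher and 449 (3.45%) lower. Counts with these offsets are therefore given beside most of the lists below. Of the 24 genes of smallest p named next, all kept their sign and 21 were nominal with the offsets. An adjusted p below 0.05 was found for 13 of the 24 in at least 1 of the 15 fits that left out a library, and for 7 with the numbering of the animals described below. Among the other genes that are described below as nominal, Vamp2, Cplx1, Syn1, Rims1, Egr1, Grm4, Grm2, Slc1a2, P2ry12, Calcrl, Hcrtr1, Cck, Ddit4, Hapln1, Ndufs7 and Ngfr were not nominal with the offsets. Animal numbers had 3 digits for 2 virgin and 7 primiparous females and 4 digits for 5 virgin and 1 primiparous female, so that differences within either series rest on few animals, and with this numbering added to the model edgeR called 14 genes at an adjusted p below 0.05.

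**Figure D2:**
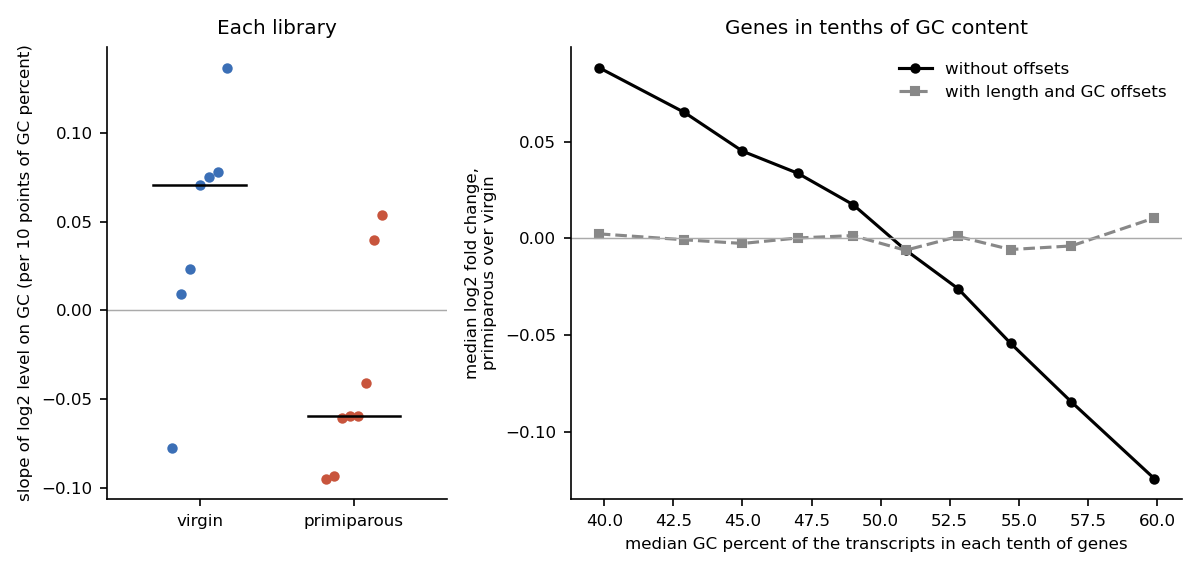
Left, slope of the log2 level of all genes on transcript GC content, per 10 points of GC percent, in each amygdala library by state. Right, median log2 fold change of primiparous over virgin females in 10 equal groups of genes by GC content, which goes from 0.09 at a GC content of 39.8% to -0.12 at 59.9% without offsets and stays between -0.01 and 0.01 with offsets for GC content and length.

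The genes of smallest p with a lower mean in primiparous females were led by Chga (Entrez 12652, chr12:102554941-102565027 in GRCm38.p6), which encodes chromogranin A, a core protein of dense-core secretory granules. Its level was 165 to 228 CPM (median 180.1) in virgin and 106 to 165 CPM (median 142) in primiparous females, and all 8 primiparous libraries lay below all 7 virgin libraries, the closest pair by less than 1 CPM. The log2 fold change was -0.41 ± 0.08 (SE), adjusted p = 0.162 in edgeR, and -0.30 (nominal) with the GC and length offsets. Within the animals of 3-digit numbers the mean difference in log2(CPM + 4) was -0.48, and within those of 4-digit numbers it was -0.41. Hrh3, the histamine H3 receptor, which dampens transmitter release from nerve terminals, had 79.02 to 108 CPM (median 100.1) in virgin and 54.02 to 85.2 CPM (median 71.9) in primiparous females with 5 primiparous libraries below all virgin libraries (log2 fold change -0.45 ± 0.09 (SE), adjusted p = 0.162). Hcn3, a pacemaker channel subunit opened by hyperpolarization, had 21.4 to 28.1 CPM (median 23.4) and 15.9 to 20.02 CPM (median 17.4), also without overlap (log2 fold change -0.41 ± 0.09 (SE), adjusted p = 0.162, and -0.31 with offsets). In both genes 8 of 8 primiparous libraries lay below the virgin mean.

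Further genes of this group belonged to other functions. Scand1, a small SCAN-domain protein, had 28.5 to 45.5 CPM (median 38.1) in virgin and 21.2 to 33.8 CPM (median 23.2) in primiparous females (log2 fold change -0.58 ± 0.12 (SE), adjusted p = 0.162). Bex3, an adaptor of the p75 neurotrophin receptor, had 154 to 172 CPM (median 167) and 121 to 154 CPM (median 138) without overlap (log2 fold change -0.26 ± 0.06 (SE), adjusted p = 0.162, and -0.24 with offsets). Igsf8, a membrane protein of the immunoglobulin superfamily, and Ptms, the acidic protein parathymosin, had log2 fold changes of -0.33 and -0.33. Lmtk3, a membrane kinase of neurons, C1qtnf4, a secreted protein with C1q domains, Tpgs1, a subunit of the tubulin polyglutamylase, and Ints1, a scaffold of the Integrator complex, had log2 fold changes of -0.36, -0.38, -0.37 and -0.25. With the GC and length offsets the fold changes of Scand1, Hrh3, Ptms, Lmtk3, C1qtnf4, Tpgs1 and Ints1 were more than 1.5 times smaller on the log2 scale, at -0.31, -0.28, -0.12, -0.12, -0.07, -0.16 and -0.12. All 12 genes had a GC content above the median of all genes. C1qtnf4 and Tpgs1 had their highest primiparous level in primiparous 413, with 264 and 56.8 CPM, where the next primiparous library had 204 and 44.3 CPM.

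Among the 12 genes of smallest p with a higher mean in primiparous females were genes of postsynaptic scaffolds and of inhibitory transmission. Homer2, a scaffold that links group 1 metabotropic glutamate receptors to calcium stores, had 83.1 to 126 CPM (median 122.7) in virgin and 128 to 168 CPM (median 144) in primiparous females without overlap (log2 fold change 0.34 ± 0.08 (SE), adjusted p = 0.162, and 0.25 with offsets). Lin7c, a PDZ-domain scaffold of synapses and epithelia, had 81.8 to 103 CPM (median 92.8) and 104 to 119.8 CPM (median 113), also without overlap (log2 fold change 0.27 ± 0.06 (SE), adjusted p = 0.162, and 0.18 with offsets). Gabra2 (Entrez 14395, chr5:70958392-71095849), the alpha2 subunit of GABA-A receptors, which mediates much of the action of benzodiazepines on anxiety, had 43.2 to 66.8 CPM (median 49.8) and 56.7 to 73.6 CPM (median 65.2). All 8 primiparous libraries lay above the virgin mean and 3 above all virgin libraries (log2 fold change 0.34 ± 0.08 (SE), adjusted p = 0.162, 0.25 (nominal) with offsets). Within the animals of 3-digit and of 4-digit numbers the differences in log2(CPM + 4) of Gabra2 were 0.46 and 0.42. The level of these 3 synaptic genes was thus 1.26-fold, 1.204-fold and 1.27-fold that of virgin females, with an adjusted p of 0.162 for each in edgeR.

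Fabp7 had the highest fold change of the 12. It encodes the brain fatty acid binding protein of radial glia and astrocytes, and had 26.02 to 49.9 CPM (median 33.2) in virgin and 40.4 to 70.05 CPM (median 52.01) in primiparous females (log2 fold change 0.60 ± 0.14 (SE), adjusted p = 0.162, and 0.52 with offsets), with 5 primiparous libraries above all virgin libraries. The mean of Fabp7 was also higher in primiparous females in each of the other regions. The mean log2 differences were 0.354 in hippocampus, 0.342 in neocortex, 0.324 in hypothalamus and 0.737 in cerebellum. The direction was thus not particular to the amygdala, and these differences are given without a test. Cntnap5c, a neurexin-like adhesion protein, had 5.48 to 8.23 CPM (median 6.87) and 7.46 to 12.5 CPM (median 10.1) (log2 fold change 0.59 ± 0.14 (SE), adjusted p = 0.162). Apc, a scaffold of the beta-catenin destruction complex that also binds microtubules, had 398 to 576 CPM (median 521) and 521 to 719 CPM (median 675) (log2 fold change 0.35 ± 0.08 (SE), adjusted p = 0.162). Virgin 405 had the lowest Apc level, where the next virgin library had 512 CPM. Luzp2, Marf1, Nhsl1, Mfap3l, Coa5 and Zfp236 had log2 fold changes of 0.34, 0.27, 0.29, 0.33, 0.24 and 0.28. None of the 12 higher genes had a fold change more than 1.5 times smaller with the offsets, and 10 of them had a GC content below the median of all genes.

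**Figure D3:**
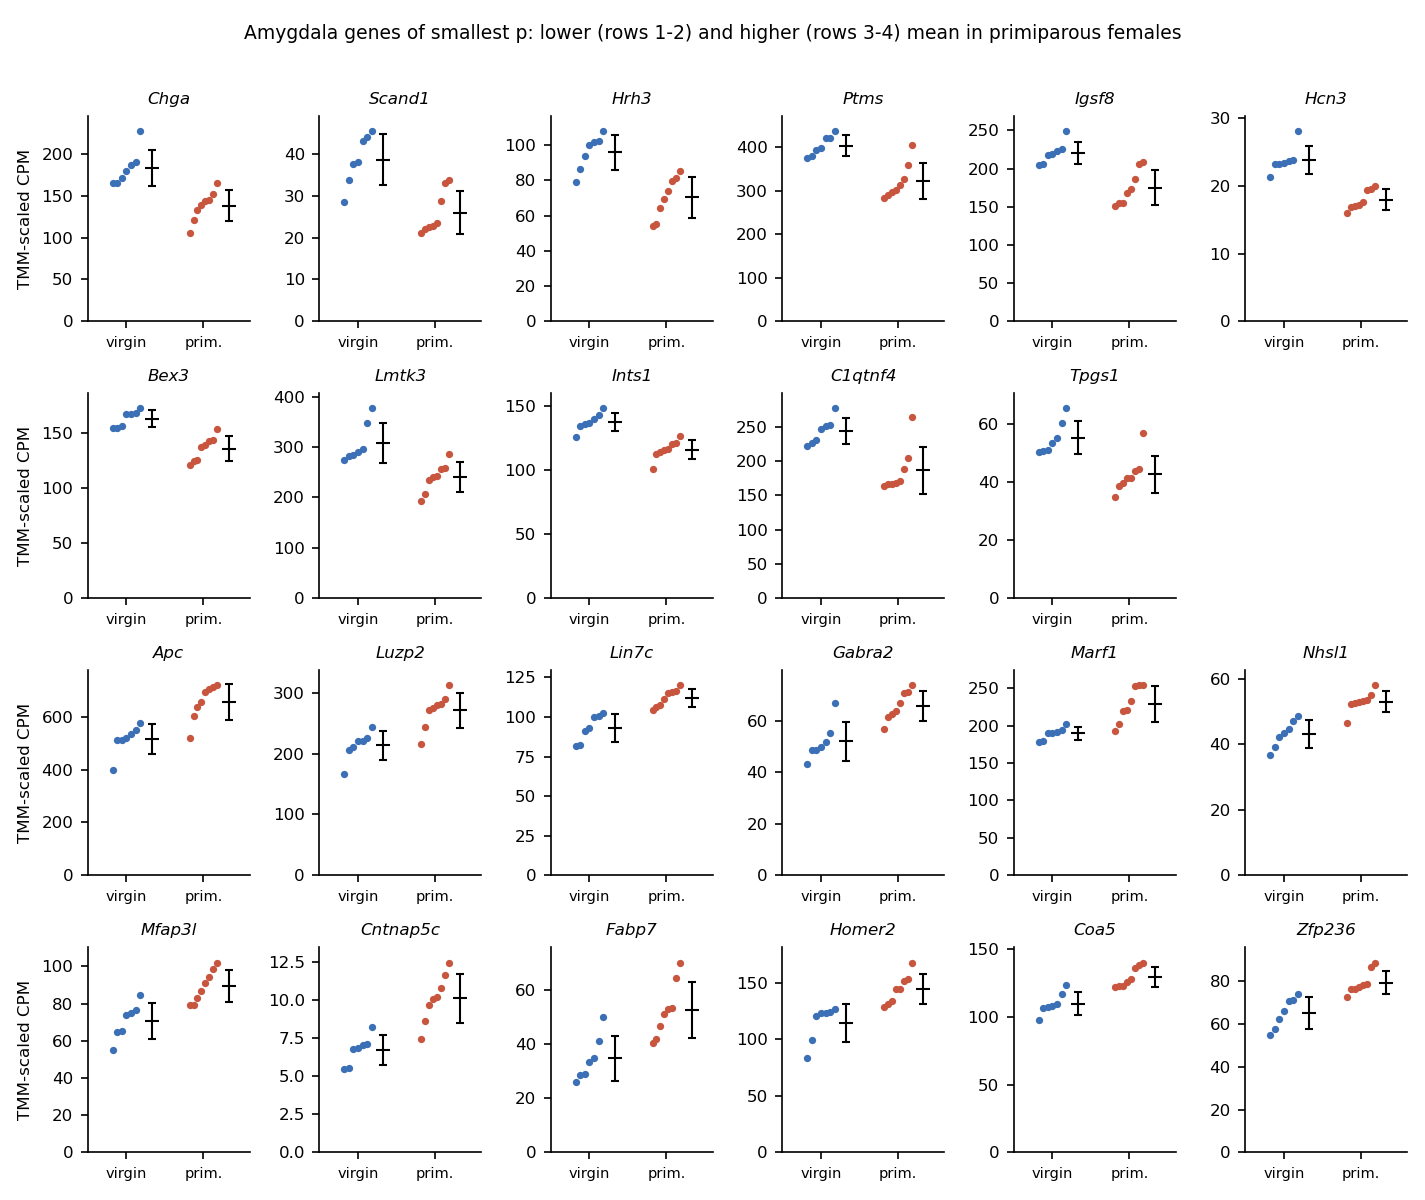
CPM of 11 of the 12 genes of smallest p with a lower mean (rows 1 and 2) and the 12 with a higher mean (rows 3 and 4) in primiparous females, 1 panel per gene and 1 point per library, with the mean and SD of each state and the y axis starting at 0. Chga, Hcn3, Bex3, Lin7c and Homer2 are the 5 genes in which the points of the states do not overlap.

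Chga was followed within its group, the granins and the enzymes that process prohormones in secretory granules. Of 16 such genes 4 had a nominally lower and 0 a nominally higher mean in primiparous females, beside 6.53% lower and 5.33% higher among all genes, and the median log2 fold change was -0.08 beside 0.00 for all genes. With the offsets 2 of 16 were nominally lower, beside 3.45% of all genes, and 4.4% of all genes were higher. Vgf, a neurotrophin-induced granin that gives rise to several peptides, had 322 to 514 CPM (median 334) in virgin and 248 to 341 CPM (median 286) in primiparous females, with 7 primiparous libraries below all virgin libraries (log2 fold change -0.40 ± 0.09 (SE), adjusted p = 0.162, and -0.19 (not nominal) with offsets). Pcsk1n, the inhibitor of prohormone convertase 1, had 639 to 912 CPM (median 761) and 525 to 882 CPM (median 618) (log2 fold change -0.26 ± 0.10 (SE), adjusted p = 0.282), and Ptprn, a membrane protein of the granule, had 646 to 809 CPM (median 716) and 582 to 712 CPM (median 634) (log2 fold change -0.19 ± 0.06 (SE), adjusted p = 0.257, and -0.07 (not nominal) with offsets). Other granins missed nominal p, with log2 fold changes of -0.17 ± 0.11 (SE), adjusted p = 0.59 for Scg2 and -0.10 for Chgb, and a mean difference in log2(CPM + 4) of 0.10 for Scg3. The convertase gene Pcsk1 and the carboxypeptidase gene Cpe had log2 fold changes of 0.19 and 0.06. For Pcsk2, the other main convertase of granules, the mean difference in log2(CPM + 4) was -0.13.

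Genes of synaptic vesicles were counted in the same way. Of 18 genes of vesicle release 6 had a nominally lower and 1 a nominally higher mean, beside 6.53% and 5.33% of all genes (3 and 0 with offsets, beside 3.45% and 4.4%), with a median log2 fold change of -0.06. When 1 library was left out, 6 to 7 were lower and 0 to 2 higher. Syp, the vesicle membrane protein synaptophysin, had 1275 to 1662 CPM (median 1435) in virgin and 1067 to 1452 CPM (median 1191) in primiparous females (log2 fold change -0.24 ± 0.07 (SE), adjusted p = 0.209, and -0.27 (nominal) with offsets). Sv2a, the vesicle protein that binds levetiracetam, had 405 to 557 CPM (median 443) and 345 to 442 CPM (median 384) (log2 fold change -0.24 ± 0.07 (SE), adjusted p = 0.207), and the vesicle GTPase gene Rab3a had a log2 fold change of -0.24 ± 0.07 (SE), adjusted p = 0.209. Vamp2, Cplx1 and Syn1, which act in fusion, clamping and tethering of vesicles, had log2 fold changes of -0.16, -0.18 and -0.21. Rims1, an organiser of the active zone, had a higher mean with 155 to 239.5 CPM (median 185) in virgin and 199 to 245 CPM (median 213) in primiparous females (log2 fold change 0.17 ± 0.08 (SE), adjusted p = 0.401). All 18 genes of the list loaded in the same direction on the first component of the variation between animals described below, in which virgin 4486 stood at the high end. Without virgin 4486 and primiparous 427 together the nominally lower genes numbered 5 of 18 for vesicle release and 4 of 16 for granins.

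Immediate early genes are those that neurons transcribe within minutes of activity. Of 12 genes 2 were nominally lower and 0 higher, beside 6.53% and 5.33% of all genes, with a median log2 fold change of -0.20. With the offsets the median was -0.08 and 1 of 12 was lower, beside 3.45% of all genes, and without 1 library 1 to 3 were. Egr4, a zinc finger factor of the Egr family, had 30.8 to 48.5 CPM (median 36.2) in virgin and 16.2 to 36.7 CPM (median 26.7) in primiparous females, with 7 primiparous libraries below all virgin libraries (log2 fold change -0.51 ± 0.12 (SE), adjusted p = 0.162, and -0.23 (nominal) with offsets). Egr1 had 102 to 187 CPM (median 129) and 75.5 to 156 CPM (median 94.3) (log2 fold change -0.35 ± 0.16 (SE), adjusted p = 0.412). Fos, Arc, Npas4 and Junb, the other commonly used markers of activity, had log2 fold changes of 0.15, -0.11, 0.01 and -0.25, of which none was a nominal call, and their ranges overlapped between the states.

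Because Chga and Egr4 both had lower means, their promoters were read for the cyclic AMP response element, the binding site of CREB, as the letters TGACGTNA on both strands. The 250 bases before the start of each gene are shown because each holds 1 match, in capitals; sequences are from RefSeq, build GRCm38.p6, with Chga at chr12:102554691-102554940 on the plus strand and Egr4 at chr6:85513590-85513839 on the minus strand.
Chga: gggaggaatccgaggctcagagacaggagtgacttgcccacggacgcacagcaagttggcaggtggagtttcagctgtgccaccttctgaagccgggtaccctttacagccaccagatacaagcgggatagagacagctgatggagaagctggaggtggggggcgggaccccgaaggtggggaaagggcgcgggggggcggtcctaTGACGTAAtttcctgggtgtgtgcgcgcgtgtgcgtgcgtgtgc
Egr4: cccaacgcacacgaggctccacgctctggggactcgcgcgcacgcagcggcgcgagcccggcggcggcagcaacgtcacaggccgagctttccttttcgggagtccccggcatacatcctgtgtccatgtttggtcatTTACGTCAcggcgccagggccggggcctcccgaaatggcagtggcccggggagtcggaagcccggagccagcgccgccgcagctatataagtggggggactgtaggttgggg
The match of Chga lies 44 to 37 bases and that of Egr4 112 to 105 bases before the start. Of the promoters of genes tested, 511 of 13276 (3.85%) held a match, and of all promoters given by RefSeq 828 of 32851 (2.52%). A match was found in 4 of 14 granin and processing genes with a promoter in the table (Chga, Chgb, Pcsk1 and Scg2) and in 3 of 9 immediate early genes (Btg2, Dusp1 and Egr4). Among the 4 granin genes with a match, only Chga had a nominally lower mean, and Pcsk1 had a fold change above 0. These matches describe the letters only.

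Glutamate and GABA receptor subunits are given by class, beside 5.33% of all genes nominally higher and 6.53% lower (4.4% and 3.45% with offsets). Grin1, the obligatory subunit of NMDA receptors, had 259 to 314 CPM (median 282) in virgin and 196 to 278 CPM (median 228) in primiparous females, with 7 primiparous libraries below all virgin libraries (log2 fold change -0.28 ± 0.07 (SE), adjusted p = 0.162, and -0.18 (nominal) with offsets), and it was the only nominal call of 6 NMDA receptor genes (1 higher and 1 lower with offsets). Grik4 and Grik5, the high-affinity kainate receptor subunits, were the nominally lower members of 9 AMPA and kainate receptor genes with log2 fold changes of -0.42 ± 0.14 (SE), adjusted p = 0.257 and -0.17 ± 0.06 (SE), adjusted p = 0.261, and Grik5 had -0.02 (not nominal) with offsets, under which 1 gene of this list was lower. Of 7 metabotropic glutamate receptors Grm4 and Grm2, which sit on nerve terminals, were nominally lower (log2 fold change -0.39 ± 0.16 (SE), adjusted p = 0.322 and -0.22 ± 0.10 (SE), adjusted p = 0.394), and 0 were with offsets. Of 15 GABA-A subunits, Gabra2 was nominally higher and Gabre, at 1.33 to 3.703 CPM (median 2.402) in virgin and 0.611 to 2.65 CPM (median 1.22) in primiparous females, nominally lower (log2 fold change -0.74 ± 0.34 (SE), adjusted p = 0.388), and 1 was higher and 1 lower with offsets. Among 13 genes that the study names from other brain regions, Gabra2 was the only nominal call.

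Chaperones of the endoplasmic reticulum fold secreted and membrane proteins. Of 20 genes 4 were nominally higher and 0 lower, beside 5.33% and 6.53% of all genes (3 and 0 with offsets, beside 4.4% and 3.45%). Their median log2 fold change was 0.08, and 5 of 20 were below 0. Hspa5, the central chaperone BiP, had 271 to 391 CPM (median 295) in virgin and 309 to 390.0 CPM (median 353) in primiparous females (log2 fold change 0.19 ± 0.07 (SE), adjusted p = 0.316, and 0.15 (not nominal) with offsets). Pdia4, a protein disulfide isomerase, had 36.9 to 49.3 CPM (median 42.5) and 43.6 to 59.1 CPM (median 53.6) with 6 primiparous libraries above all virgin libraries (log2 fold change 0.29 ± 0.08 (SE), adjusted p = 0.199). Dnajc3, a cochaperone of BiP, had 66.6 to 84.9 CPM (median 74.9) and 77.5 to 109 CPM (median 88.04) (log2 fold change 0.24 ± 0.08 (SE), adjusted p = 0.234), and Pdia3 had 189 to 209.8 CPM (median 201) and 205 to 236 CPM (median 215) (log2 fold change 0.13 ± 0.05 (SE), adjusted p = 0.317). The primiparous range of Hspa5 lay within the virgin range, whereas 5 or 6 primiparous libraries lay above all virgin libraries for the other 3 genes. Without virgin 4486 and primiparous 427 together 6 of 20 were nominally higher.

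The promoters of this list were read for the endoplasmic reticulum stress element, the site through which the unfolded protein response acts, as the letters CCAAT and CCACG with 9 bases of any kind between them, on both strands. The promoters of Hspa5 (chr2:34771840-34772089, plus strand) and Dnajc3 (chr14:118937682-118937931, plus strand) are shown because both genes had nominally higher means and each holds 1 match, in capitals, from RefSeq GRCm38.p6.
Hspa5: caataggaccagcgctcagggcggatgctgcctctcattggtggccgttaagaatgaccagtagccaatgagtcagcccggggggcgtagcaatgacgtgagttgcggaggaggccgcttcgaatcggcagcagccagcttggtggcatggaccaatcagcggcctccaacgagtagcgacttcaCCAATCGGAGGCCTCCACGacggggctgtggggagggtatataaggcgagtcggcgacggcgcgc
Dnajc3: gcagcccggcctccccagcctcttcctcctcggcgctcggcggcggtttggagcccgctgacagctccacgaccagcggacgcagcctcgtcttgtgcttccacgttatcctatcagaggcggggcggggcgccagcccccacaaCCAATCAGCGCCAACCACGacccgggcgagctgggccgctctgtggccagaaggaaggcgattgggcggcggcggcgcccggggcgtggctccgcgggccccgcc
The match lies 65 to 47 bases before the start of Hspa5 and 105 to 87 bases before that of Dnajc3. Of the promoters of genes tested 15 of 13276 (0.113%) held a match, and of the 18 chaperone genes with a promoter given there, 8 did (Calr, Canx, Creld2, Dnajc3, Hsp90b1, Hspa5, Pdia6 and Syvn1). Only Dnajc3 and Hspa5 of these 8 were among the nominal calls, whereas Pdia4 and Pdia3 had no match in this window.

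**Figure D4:**
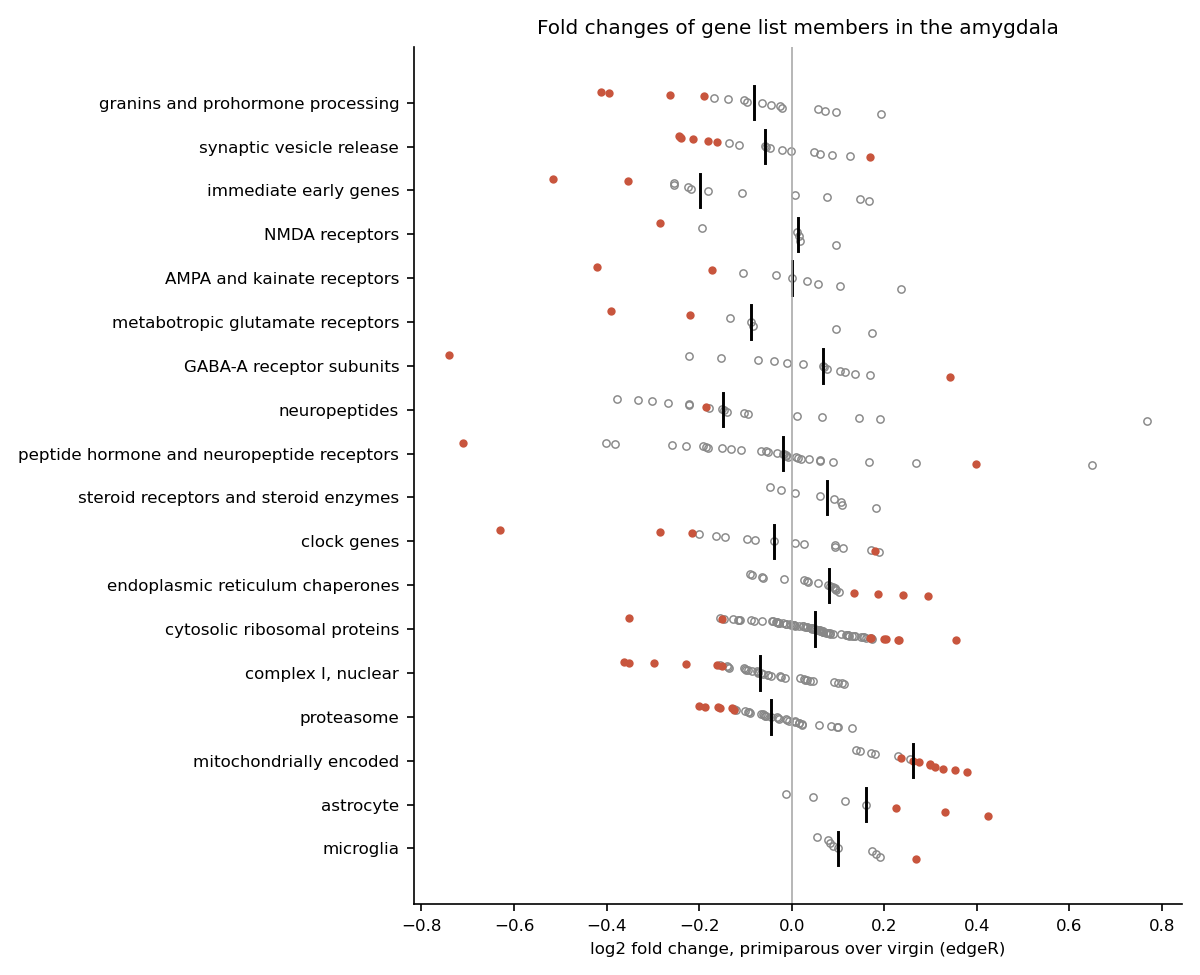
Log2 fold change of primiparous over virgin females in the amygdala (edgeR, x axis) for each member of the gene lists, 1 row per list and 1 point per gene, with the list median as a bar and nominal calls marked. The 15 mitochondrially encoded genes and the 9 microglial markers lie above 0 (medians 0.26 and 0.10), whereas most lists have members on both sides of 0.

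Mitochondrial proteins are encoded in part by the mitochondrial and mostly by the nuclear genome. The list of mitochondrially encoded genes also holds the ribosomal RNA genes mt-Rnr1 and mt-Rnr2. Their mean differences in log2(CPM + 4) were 0.39 and 0.34. Of 15 mitochondrially encoded genes 9 were nominally higher and 0 lower in primiparous females, beside 5.33% and 6.53% of all genes (5 and 0 with offsets, beside 4.4% and 3.45%), and their median log2 fold change was 0.26. The 9 became 4 without primiparous 4493, 5 without virgin 405, 5 without virgin 4486 and 14 without virgin 409. mt-Co1, the catalytic subunit of cytochrome oxidase, had 11431 to 21398 CPM (median 15889) in virgin and 15960 to 24683 CPM (median 20442) in primiparous females (log2 fold change 0.35 ± 0.11 (SE), adjusted p = 0.253), and mt-Nd5, a subunit of complex I, had 4295 to 7138 CPM (median 5396) and 5003 to 8241 CPM (median 6957) (log2 fold change 0.31 ± 0.11 (SE), adjusted p = 0.278). Transcripts of the mitochondrial genome took 4.14 to 7.55% of counts in virgin and 5.47 to 8.62% in primiparous libraries, so that their share overlapped between the states. Of 36 nuclear genes of complex I, 0 were nominally higher and 6 lower (1 and 6 with offsets), with a median of -0.07 and 10 genes above 0. Ndufa8 and Ndufs7 had log2 fold changes of -0.35 ± 0.12 (SE), adjusted p = 0.259 and -0.23 ± 0.08 (SE), adjusted p = 0.257. Of 16 nuclear genes of ATP synthase 1 was nominally higher and 1 lower (1 and 3 with offsets). The difference between the lists of the 2 genomes was not tested. The 9 higher mitochondrial genes became 5 without virgin 4486 and primiparous 427 together, and 6 with the numbering of the animals in the model.

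Genes of protein turnover and synthesis had small fold changes. Of 35 proteasome genes 6 were nominally lower and 0 higher, beside 6.53% and 5.33% of all genes (5 and 1 with offsets, beside 3.45% and 4.4%), and 3 were lower without virgin 4491. Psmb4, a core subunit, was a nominally lower member of the list, with 112 to 127 CPM (median 119.7) in virgin and 100.0 to 119.8 CPM (median 106) in primiparous females (log2 fold change -0.16 ± 0.05 (SE), adjusted p = 0.257). Of 80 genes of cytosolic ribosomal proteins 7 were nominally higher and 2 lower, beside 5.33% and 6.53% of all genes (14 and 2 with offsets, beside 4.4% and 3.45%), with a median of 0.05. Without virgin 409 there were 20 higher genes, and without virgin 4486 there were 7 lower ones. Rpl35 had a log2 fold change of 0.23 ± 0.07 (SE), adjusted p = 0.223 and Rpl37a one of -0.35 ± 0.12 (SE), adjusted p = 0.257, so that members of this list lay on both sides of 0. Without virgin 4486 and primiparous 427 together, the ribosomal counts turned to 3 higher and 6 lower.

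Astrocytes supply neurons and clear transmitter. Of 7 astrocyte markers 3 were nominally higher and 0 lower in primiparous females, beside 5.33% and 6.53% of all genes (2 and 0 with offsets, beside 4.4% and 3.45%), with a median of 0.16 and 1 marker below 0, and 5 were higher without virgin 409. Aqp4, the water channel of astrocyte endfeet, had 127 to 258 CPM (median 187) in virgin and 214 to 293 CPM (median 234) in primiparous females (log2 fold change 0.42 ± 0.12 (SE), adjusted p = 0.209). Gja1, the gap junction protein connexin 43, had 165 to 262 CPM (median 193) and 199 to 307 CPM (median 243) (log2 fold change 0.33 ± 0.10 (SE), adjusted p = 0.22), and Slc1a2, the glutamate transporter that clears the synaptic cleft, had 2925 to 4612 CPM (median 3441) and 3611 to 4618 CPM (median 4145) (log2 fold change 0.23 ± 0.09 (SE), adjusted p = 0.299). Virgin 4486 and virgin 405 had the lowest astrocyte sums, 4375 and 4435 CPM, and virgin 409 the highest, 7302 CPM. All 9 microglial markers had fold changes above 0, of which P2ry12, the purinergic receptor of resting microglia, was the only nominal call (log2 fold change 0.27 ± 0.12 (SE), adjusted p = 0.391), and 3 others were nominally higher with offsets. None of 10 oligodendrocyte and 8 endothelial markers was a nominal call. Of 3 blood genes, Alas2 and Hbb-bs were nominally higher with 1.695 to 7.704 CPM (median 4.33) against 3.12 to 10.2 CPM (median 9.18) for Alas2 (log2 fold change 0.90 ± 0.26 (SE), adjusted p = 0.209), and 3 of 3 were with offsets and 1 to 3 without 1 library. Hbb-b1, a globin gene outside this list, had a log2 fold change of -0.44 ± 0.53 (SE), adjusted p = 0.798, and since counting can split reads between it and the nearly identical Hbb-bs, the call of Hbb-bs is uncertain. The part of cell composition in the results above was not tested.

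Peptides and hormone receptors known from maternal behaviour were mostly outside the nominal calls, which hold 5.33% of all genes as higher and 6.53% as lower (4.4% and 3.45% with offsets). Oxtr, the oxytocin receptor, had 16.2 to 26.9 CPM (median 24.98) in virgin and 15.6 to 41.8 CPM (median 28.4) in primiparous females (log2 fold change 0.27 ± 0.15 (SE), adjusted p = 0.497, 95% interval -0.04 to 0.58), and 6 primiparous libraries lay above all virgin libraries while 1 lay below all of them. Prlr, the prolactin receptor, had 6.82 to 15.7 CPM (median 10.2) and 4.59 to 22.7 CPM (median 8.69) (log2 fold change -0.05 ± 0.28 (SE), adjusted p = 0.968, 95% interval -0.63 to 0.53), and Esr1, the estrogen receptor alpha, had 4.16 to 12.4 CPM (median 9.41) and 7.51 to 12.6 CPM (median 9.86) (log2 fold change 0.09 ± 0.18 (SE), adjusted p = 0.891, 95% interval -0.28 to 0.47). All 3 intervals include 0, and differences within their bounds are not excluded by these data. Of 31 receptors for peptides and peptide hormones 1 was nominally higher, Calcrl (log2 fold change 0.40 ± 0.17 (SE), adjusted p = 0.334), a subunit of the CGRP receptor found in the central nucleus, and 1 lower, Hcrtr1, an orexin receptor (log2 fold change -0.71 ± 0.30 (SE), adjusted p = 0.348), and 0 were with offsets. Of 18 neuropeptide genes only Cck, with 173 to 247 CPM (median 219) in virgin and 167 to 222 CPM (median 195) in primiparous females, was a nominal call (log2 fold change -0.18 ± 0.07 (SE), adjusted p = 0.322), and the list had a median of -0.15 and 1 other gene nominally lower with offsets. None of 8 genes of steroid receptors and enzymes and none of 9 serotonin receptors was a nominal call. Of 13 genes that respond to glucocorticoids Ddit4 alone was nominally lower (log2 fold change -0.31 ± 0.11 (SE), adjusted p = 0.269; with offsets 1 other gene was), and Nr3c1, the glucocorticoid receptor, had a log2 fold change of -0.02 ± 0.07 (SE), adjusted p = 0.929.

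Clock genes, which follow the time of day, were examined because the tissue was collected in a short window. Of 17 genes 3 were nominally lower and 1 higher, beside 6.53% and 5.33% of all genes (2 and 1 with offsets, beside 3.45% and 4.4%). When 1 library was left out, 2 to 4 were lower and 0 to 2 higher. Ciart, a repressor of the clock, had 5.01 to 11.6 CPM (median 10.6) in virgin and 3.24 to 8.58 CPM (median 5.94) in primiparous females (log2 fold change -0.63 ± 0.21 (SE), adjusted p = 0.257), and Bhlhe41, another repressor, had 25.1 to 37.1 CPM (median 27.96) and 19.97 to 27.3 CPM (median 22.9) (log2 fold change -0.28 ± 0.10 (SE), adjusted p = 0.262). Per1 was also nominally lower (log2 fold change -0.22 ± 0.08 (SE), adjusted p = 0.308, and -0.10 (not nominal) with offsets), and Clock was nominally higher (log2 fold change 0.18 ± 0.08 (SE), adjusted p = 0.348, and 0.07 (not nominal) with offsets). The time of harvest of each animal was not used here, and its part in these values was not tested. Of 18 cholesterol synthesis genes, Lss alone was nominally higher (log2 fold change 0.27 ± 0.09 (SE), adjusted p = 0.259), also with offsets, and of 8 genes of perineuronal nets Hapln1 alone (log2 fold change 0.24 ± 0.10 (SE), adjusted p = 0.322), with 0 under the offsets.

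Genes of neighbouring tissue varied between animals and in part with the state. All 10 striatal markers that were tested had fold changes below 0, with a median of -0.28, and 2 of 10 were nominally lower and 0 higher, beside 6.53% and 5.33% of all genes (2 and 0 with offsets, beside 3.45% and 4.4%). The 2 became 1 without virgin 409 and 5 with the numbering of the animals in the model. Drd2, the dopamine D2 receptor, was 1 of these, with 2.502 to 13.2 CPM (median 6.096) in virgin and 1.88 to 7.79 CPM (median 3.57) in primiparous females (log2 fold change -0.83 ± 0.34 (SE), adjusted p = 0.327). Adora2a, the adenosine receptor of the same striatal neurons, was not a nominal call, with 3.23 to 42.4 CPM (median 13) and 3.13 to 16.6 CPM (median 7.79) (log2 fold change -0.99 ± 0.49 (SE), adjusted p = 0.448). Within the animals of 3-digit numbers, which include virgin 405 and virgin 409, the difference in log2(CPM + 4) was -1.59 for Adora2a and -0.65 for Rgs9, a regulator of G protein signalling, and within those of 4-digit numbers it was 0.35 and 0.42, so that the sign turned. The 2 virgin libraries with the highest striatal sums, 405 and 409, were also those with the highest sums of cholinergic genes of the basal forebrain, whose member Ngfr was nominally lower in primiparous females (log2 fold change -0.97 ± 0.43 (SE), adjusted p = 0.384, and -0.36 without virgin 409). Th, which makes dopamine precursors and is at a low level here, had 1.497 to 6.31 CPM (median 3.29) and 0.451 to 2.998 CPM (median 1.32) (log2 fold change -1.28 ± 0.36 (SE), adjusted p = 0.201), with 6 primiparous libraries below all virgin libraries. None of the 8 basolateral, 6 intercalated and 6 medial or cortical markers tested was a nominal call, and of 9 central markers only Calcrl was. Among other tissues, all 5 cerebellar markers had fold changes above 0, and 1 was nominally higher (1 with offsets). This was Car8, which was at a similar level in hippocampus, hypothalamus and neocortex. Of 7 neocortical markers 1 was higher (0 with offsets), and of 5 thalamic markers 1 was higher and 1 lower (1 and 1 with offsets). None of 9 hippocampal and 6 choroid plexus markers was a nominal call.

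The fold changes of Prl, Gh, Hcrt and Pomc, genes of the pituitary and hypothalamus, were smaller without primiparous 427. Prl, the hormone prolactin, had 0 to 9.33 CPM (median 0.274) in virgin and 0 to 124 CPM (median 2.76) in primiparous females, with 124 CPM in primiparous 427 and 20.8 CPM in the next. Its log2 fold change was 3.56 ± 1.48 (SE), adjusted p = 0.368, and 1.599 (not nominal) without primiparous 427. Gh, growth hormone, had a log2 fold change of 3.82 ± 1.55 (SE), adjusted p = 0.354, and 1.93 (not nominal) without that library. It was -0.26 with the components of the nuclear and neighbour markers as covariates, among which Gh itself is. Hcrt, the peptide orexin of the lateral hypothalamus, had 0 to 0.641 CPM (median 0.399) and 0.0871 to 15.7 CPM (median 0.408) (log2 fold change 2.86 ± 1.12 (SE), adjusted p = 0.326, and 0.33 (not nominal) without primiparous 427). Pomc had a log2 fold change of 1.203 ± 0.49 (SE), adjusted p = 0.34, and 0.89 (not nominal) without it. The nominal calls, all higher, were 2 of 2 pituitary and 2 of 10 hypothalamic genes, beside 5.33% of all genes (2 and 2 with offsets, beside 4.4%), and became 0 in each without primiparous 427 and virgin 4486 together. Within the animals of 3-digit numbers the difference of Prl in log2(CPM + 4) was 1.39, and within those of 4-digit numbers -0.26.

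The spread between animals of the same state was described across genes. The common biological coefficient of variation was 15.7% in the amygdala, beside 16.3% in the neocortex, 12.1% in the hypothalamus, 12.01% in the cerebellum and 11.3% in the hippocampus, and it was 14.4% in the amygdala when the first 2 components of the nuclear and neighbour markers were covariates. These components were taken from the same libraries, so the lower value does not measure the part of dissection in the spread. Among the genes with a mean of at least 5 CPM, the largest SD of log2(CPM + 4) within states was that of Prl (1.34), followed by Avp, the peptide vasopressin (1.16), and Ttr, the thyroid hormone carrier of choroid plexus (1.03). Avp had 2.42 to 62.5 CPM (median 23.1) in virgin and 1.43 to 36.6 CPM (median 26.3) in primiparous females, and Ttr had 2.099 to 45.9 CPM (median 13) and 7.27 to 41.2 CPM (median 28.5). Acta2, the actin of vascular smooth muscle, Hbb-b1, a globin of red blood cells, Scn4b, a sodium channel subunit of striatum, and Igf2 and Mgp, from vessels and meninges, followed with SDs of 0.93, 0.89, 0.82, 0.75 and 0.75. The other members of the 10 most variable were Entrez 19791, a gene with no symbol in the tables used, and Trh, the thyrotropin-releasing hormone, which had an SD of 0.73, with 5.25 to 15.8 CPM (median 10.5) in virgin and 3.98 to 46.5 CPM (median 16.6) in primiparous females. Entrez 19791 had 204 to 816 CPM (median 489) in virgin and 84.2 to 302 CPM (median 132) in primiparous females, with 5 primiparous libraries below all virgin libraries and an SD of 0.705 (log2 fold change -1.52 ± 0.37 (SE), adjusted p = 0.199). Entrez 100861531, likewise without a symbol and chosen after its values were seen, had 2044 to 7548 CPM (median 5204) and 910 to 2776 CPM (median 1388) (log2 fold change -1.49 ± 0.34 (SE), adjusted p = 0.167). The ranges of both genes overlapped between the states. Both varied less in the amygdala than in each other region, with SDs of 0.705 against 0.827 to 1.34 for Entrez 19791. For Entrez 100861531 they were 0.661 against 0.758 to 1.34. The most variable genes with a symbol are known from pituitary, hypothalamus, choroid plexus, vessels, blood and striatum. Of the 100 most variable genes 46 had their highest mean in the cerebellum and 31 in the amygdala, beside 30.2% and 12.4% of all genes at 5 CPM or more. The basolateral markers had a median SD of 0.30 in the amygdala against 0.14 to 0.20 in the other regions, and the striatal markers 0.39 against 0.12 to 0.33, while all genes at 5 CPM or more had 0.163 in the amygdala against 0.113 to 0.169. Other lists varied more in another region, with 0.273 against 0.353 in the neocortex for intercalated markers. Thalamic markers had 0.251 against 0.396 in the hippocampus, and choroid plexus markers 0.54 against 1.17 in the cerebellum. Prl had SDs of 1.77, 1.32, 1.22 and 1.03 in hypothalamus, neocortex, cerebellum and hippocampus, and Ttr had one of 2.55 in the hippocampus.

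A few libraries held most of the extremes. Virgin 4486 was the lowest of the 15 libraries for 67 of the 100 most variable genes, whereas primiparous 421 was the highest for 28, primiparous 427 for 16 and virgin 405 for 15. The first component of the deviations from the mean of the own state held 21.0% of the variance, with virgin 4486 at 25.4 and primiparous 421 at -14.9. Its low end was led by Ttr, Igf2, Acta2, Prl and Cldn5, a tight junction protein of brain endothelium, and its high end by the neuronal genes Sv2b, Scube1, Slc24a2, Pappa2 and Fam19a2. All 8 basolateral markers and all 18 genes of vesicle release had loadings above 0, and all 8 endothelial, 10 oligodendrocyte, 7 astrocyte and 9 microglial markers had loadings below 0. Other neuronal lists were divided, with loadings above 0 for 3 of 9 central, 1 of 6 medial and cortical and 9 of 18 neuropeptide genes, against 12 of 15 GABA-A, 7 of 9 AMPA and kainate, 6 of 7 metabotropic glutamate receptor and 10 of 12 immediate early genes. Loadings were above 0 for 2 of 80 ribosomal and 0 of 15 mitochondrially encoded genes. The second component held 12.4%, with primiparous 427 at 21.1 and virgin 409 at -12.7, and was led by Prl, Gh, Hcrt, Capn11 and Rgs5 at the high end and by Nkx6-2, Adora2a, Unc5b and Gpr101 at the low end.

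**Figure D5:**
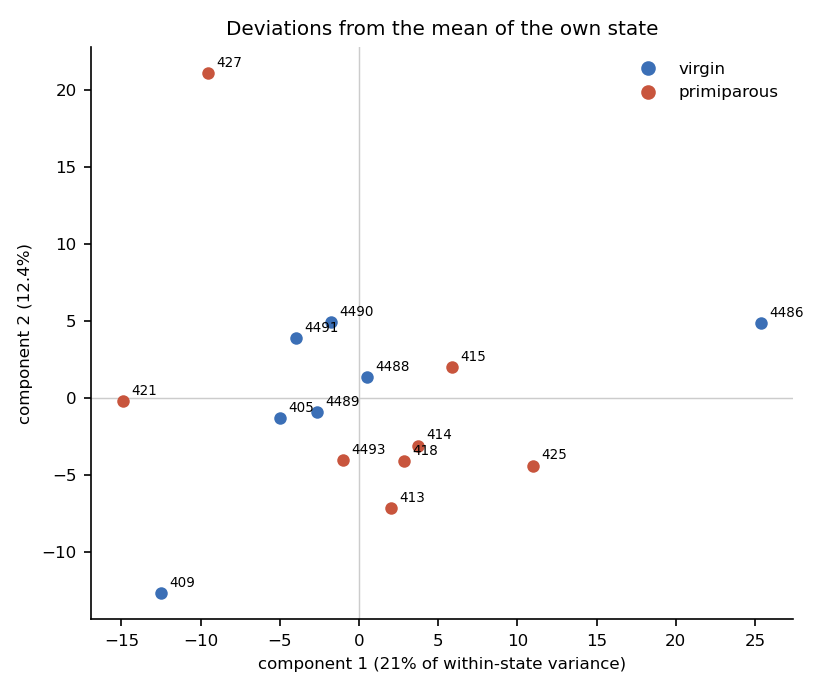
Scores of the 15 amygdala libraries on the first (x axis, 21.0% of the variance within states) and second component (y axis, 12.4%) of the deviations of log2(CPM + 4) from the mean of the own state, 1 point per library, coloured by state and named by animal number. Virgin 4486 lies apart on the first component at 25.4 and primiparous 427 on the second at 21.1.

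To learn whether the parity difference of the amygdala differed from that of other regions, interactions of region and state were tested in edgeR. The hippocampus shared 14 animals with the amygdala and the neocortex and hypothalamus 15 each, and the fits with the animal as a block used these alone. Against the hippocampus 0 of 13016 genes had an adjusted p below 0.05, 844 (6.48%) were nominal, and the fit with the animal as a block gave 0 adjusted and 762 nominal (5.85%) calls. Against the neocortex 145 genes (1.11%) had an adjusted p below 0.05, 22 (0.169%) with a parity difference more positive and the remainder (0.945%) more negative in the amygdala, but 0 with the animal as a block (2259 nominal, 17.4%, against 2477 without it, 19%). Vgf was among them, at a log2 fold change of -0.40 in the amygdala and a mean log2 difference of 0.30 in the neocortex (interaction -0.71, adjusted p = 0.0178). Chga had an interaction of -0.63 and Igsf8 one of -0.55, whereas Lin7c and Tiparp, a mono-ADP-ribosyltransferase, had 0.49 and 0.76. Without virgin 405 the count was 30 and without primiparous 413 it was 404, the lowest and highest of the fits that left out 1 amygdala library.

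Against the hypothalamus 2373 genes (18.2%) had an adjusted p below 0.05, 1100 (8.45%) above and 1273 (9.78%) below 0, and 1826 (14%) with the animal as a block. At a nominal p there were 4255 genes (32.7%), and 3849 (29.6%) with the block. With the block and the GC and length offsets together the count was 101. Chga had a mean log2 difference of 0.30 in the hypothalamus (interaction -0.73, adjusted p = 0.000874), and Gabra2 had -0.32 (interaction 0.69, adjusted p = 0.000264). With the animal as a block the adjusted p of the interaction was 0.00387 for Chga and 0.00116 for Gabra2, but with the block and offsets together it was 0.105 (interaction -0.45) and 0.166 (0.31), and 5 of the 24 genes of smallest p had an adjusted p below 0.05, against 23 without either. The libraries of each region were pooled for sequencing separately. Neither gene passed the adjusted threshold in the main edgeR fit of the 15 amygdala libraries, which had no covariates, whereas Gabra2 passed it with the numbering of the animals in the model.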

How the data were processed

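RNA of the left amygdala was measured in 7 virgin and 8 primiparous females, and the hippocampus (15 libraries), neocortex (16) and hypothalamus (16) served for comparison, of which 14, 15 and 15 came from animals with an amygdala library. Per the labels and the study's methods, the authors prepared NEBNext Ultra libraries from poly(A) RNA, sequenced them single-end in 1 pool per region, mapped reads to mm10 with HISAT2, and used featureCounts with its inbuilt annotation to count uniquely mapped reads. The submitters' processing notes also name CASAVA, edgeR and limma. Versions and the strand setting of the counting are not given in the sources used here, so overlapping and antisense genes cannot be told apart. The deposited counts are whole numbers for 27179 genes and 77 libraries, with no normalization. The deposited log2 table, made by the authors, differs from log2(CPM + 4) by a median of 3.94 and equals log2 of the count over a size factor plus 4 within 5e-05, so it served only as an alternative and for gene symbols, of which 50 duplicated ones were replaced by those of RefSeq.

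A gene was kept when 8 or more of the 77 libraries reached 5 CPM (13016 genes). The main test was the quasi-likelihood test of edgeR 4.0.16 in R 4.3.3 with TMM scaling, on the amygdala libraries alone and with Benjamini-Hochberg adjustment over all genes kept. Interactions used 4 groups of region and state. Alternatives were limma 3.58.1, DESeq2 1.42.0, other scalings and filters, the numbering of the animals, marker covariates, offsets for GC content and length (known for 97.05% of genes), and leaving out each library. The fit with the animal as a block was an alternative because the regions came largely from the same animals, and it used the shared animals only, and the median correlation of deviations within an animal was 0.062 with hippocampus, 0.056 with neocortex and 0.035 with hypothalamus. Scripts were tested on simulated data. Genes were named by a rule: the 12 of smallest p in each direction with a mean of at least 5 CPM, the 10 of largest SD, the 5 at each end of 2 components, described list members with those of smallest p, genes the study names, and up to 5 in each direction of the interactions with hippocampus and neocortex. Names outside the rule (the 16 genes whose groups do not overlap and a gene without a symbol) were chosen after their values were seen. The members and lists were chosen with earlier results of these data known. The p-values measure the spread between animals, since each library came from 1 animal. Promoters are from RefSeq GRCm38.p6. A few genes that the rule names are not reported here.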

Additional observations from a re-analysis of the deposited data

Results flagged for a closer look

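In 114 groups of values, 15 had a highest or lowest library that stood apart from the others of its state by Dixon's test at the 95% level (13.2%). Chance gives about 1 in 20 for values not chosen by their spread, but the groups include the 10 genes of largest SD and components of the variation, which were chosen or built by it, and Prl is part of the pituitary sum, so the 2 shares are not comparable. Among the virgin libraries, virgin 4490 had 12.4 CPM of the summed pituitary genes (next 1.83) and 9.33 CPM of Prl (next 0.913). Virgin 405 had 228 CPM of Chga (next 190), 28.1 CPM of Hcn3 (next 23.8) and, as the lowest, 398 CPM of Apc (next 512). Virgin 4486 stood at 25.4 on the first component (next 0.476), and virgin 409 at -12.7 on the second (next -1.32).

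Among the primiparous libraries, primiparous 427 had 172 CPM of the summed pituitary genes (next 30.5), 124 CPM of Prl (next 20.8) and a score of 21.1 on the second component (next 1.97). Primiparous 413 had 264 CPM of C1qtnf4 (next 204) and 56.8 CPM of Tpgs1 (next 44.3), and primiparous 415 had 46.1 CPM of Scn4b (next 24.1). Primiparous 414 had the lowest sum of blood genes with 23.8 CPM (next 49.4) and the highest level of Hbb-b1 with 35.1 CPM (next 22.9), while Hbb-bs, a nearly identical globin gene, was at its lowest primiparous level of 9.97 CPM there. Counting can split reads between these 2 globin genes, so their single values are uncertain.

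The parity difference of the amygdala differed from that of the neocortex in 145 genes and from that of the hypothalamus in 2373 genes at an adjusted p below 0.05 of the interaction in edgeR, with 0 and 1826 genes when the animal was a block. With the block and the GC and length offsets together the counts were 0 and 101.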

How the results depend on the processing

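The count of genes with an adjusted p below 0.05 was 0 in edgeR, limma-voom and limma-trend, 106 in DESeq2 (which gave no adjusted p for 7067 genes), 142 in an edgeR fit of 10 groups (40 shared with DESeq2), 14 with the numbering of the animals in the model, and 0 to 31 when 1 library was left out. Nominal calls numbered 1022 with GC and length offsets, of which 449 were lower. Nominally higher genes numbered 1078 without a filter, and nominally lower genes 558 to 1057 when 1 library was left out (558 without virgin 405). Genes without overlap of the states numbered 18 to 85 when 1 library was left out and 56 without virgin 4486 and primiparous 427 together, an alternative chosen after seeing the data, under which 66 of the 100 most variable genes were shared, against 72 to 98 when 1 library was left out. With the animal as a block, which pairs the regions, the count against the neocortex was 0, also with the block and offsets together, that against the hypothalamus was 1826 and 101, and that against the hippocampus was 0. When 1 library was left out, the count was 30 to 404 against the neocortex and 1812 to 2847 against the hypothalamus. The log2 fold change of Gh was -0.26 with marker components, which include Gh, as covariates. The causes of these changes were not tested. Depth limits genes of a few CPM, such as Th and Gabre, and below 1 CPM, such as Avpr1a, more than the others.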
